A study of Homo sapiens with 4 samples.

Results

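The proteasome genes of LNCaP cells treated with androgen, with or without the KDM5 inhibitor CPI-455, are described here. Members were taken by name from the count files, as the protein-coding genes whose symbol starts with PSMA, PSMB, PSMC, PSMD, PSME, PSMF or PSMG. This gave 50 of the 19586 protein-coding genes, and of 60675 genes in all. PSMC3IP and PSME3IP1 carry the prefix but code for no subunit, and the other 48 code for subunits, activators, an inhibitor or assembly factors. LNCaP is an established, androgen-responsive human prostate cancer line, derived from a lymph node metastasis, and results on it hold for this 1 line. Both groups were grown in hormone-depleted serum with 1 nM R1881, a synthetic androgen, for 72 h. The vehicle group (n = 2) received DMSO with the R1881, and the CPI-455 group (n = 2) received 50 µM CPI-455, which inhibits the KDM5 family of histone H3 lysine demethylases. The labels and the methods differ on the final DMSO concentration.

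The proteasome degrades proteins that carry ubiquitin chains. Its core is a barrel of stacked rings, in which the outer alpha subunits form a gate and the inner beta subunits hold the proteolytic sites. The regulatory particle caps the barrel, where ATPases unfold the substrate and non-ATPase subunits bind the ubiquitin chains and remove them. Other caps can replace it, such as the PSME1 and PSME2 heteromer and the PSME3 ring, and immune cells exchange the catalytic beta subunits for inducible ones. Dedicated chaperones assemble the rings and are not part of the finished particle.

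The sequencing depth was 19623553 and 20690819 counted fragments with vehicle but 9522920 and 5401588 with CPI-455. A count of 3 fragments equals 0.145 CPM at the greatest depth and 0.555 CPM at the lowest, a limit of counting error only. CPM, the unit of all levels unless TPM is named, is the fragment count scaled to a common library size after TMM normalization. The long non-coding RNA MALAT1 took 0.114% and 0.0884% of the fragments with vehicle against 4.95% and 6.49% with the inhibitor. The share of the members was 0.392% and 0.406% with vehicle against 0.419% and 0.438% with CPI-455. All 7 luminal prostate markers reported here were detected in every library and all 7 fell with CPI-455 (FDR below 0.05, edgeR quasi-likelihood test). Their summed level was 828 and 770 CPM with vehicle against 266 and 316 CPM with CPI-455. Of 10 markers of basal cells, leukocytes and fibroblasts, 2 passed the filter on low counts, and KRT5, which defines basal cells, was at 0 in every library. The basal list summed to 0.189 and 0.274 CPM with vehicle and 1.23 and 1.19 CPM with CPI-455, the leukocyte list to 3.21 and 4.07 CPM against 6.62 and 4.55 CPM, and the fibroblast list to 5.01 and 4.02 CPM against 10.2 and 10.7 CPM. The part of these markers in the results was not tested.

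The promoters are shown for 4 of the members, described below, that changed at least 2-fold, and these 4 include rises and falls. They were picked after the values were seen, because NFE2L1 was among the genes that fell. NFE2L1 codes for the factor known to drive proteasome genes through the antioxidant response element. The windows are from RefSeq (GRCh38.p14), 250 bases before to 50 bases after a transcription start, 5′ to 3′ on the strand of the gene. Capitals mark the element's core TGACNNNGC on either strand. PSME2 is shown from chr14:24146561-24146860 on the minus strand, PSMC5 from chr17:63827471-63827770 on the plus strand, PSME3 from chr17:42833147-42833446 on the plus strand and PSMD12 from chr17:67366528-67366827 on the minus strand. PSMC5 has a second window, chr17:63827181-63827480 on the plus strand, which has no match and is not printed. Its start lies upstream of the start of the printed window.
PSME2: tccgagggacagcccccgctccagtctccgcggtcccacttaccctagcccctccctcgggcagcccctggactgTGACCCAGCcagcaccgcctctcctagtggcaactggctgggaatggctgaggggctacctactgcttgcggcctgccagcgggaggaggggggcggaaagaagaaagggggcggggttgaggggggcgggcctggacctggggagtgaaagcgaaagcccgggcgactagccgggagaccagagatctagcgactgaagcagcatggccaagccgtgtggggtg
PSMC5: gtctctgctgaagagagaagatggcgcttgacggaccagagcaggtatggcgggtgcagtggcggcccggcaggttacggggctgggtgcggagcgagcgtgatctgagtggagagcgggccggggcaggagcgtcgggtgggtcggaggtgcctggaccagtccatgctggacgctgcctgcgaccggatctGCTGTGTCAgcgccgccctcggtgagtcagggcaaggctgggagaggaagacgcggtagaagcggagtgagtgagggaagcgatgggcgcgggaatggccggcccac
PSME3: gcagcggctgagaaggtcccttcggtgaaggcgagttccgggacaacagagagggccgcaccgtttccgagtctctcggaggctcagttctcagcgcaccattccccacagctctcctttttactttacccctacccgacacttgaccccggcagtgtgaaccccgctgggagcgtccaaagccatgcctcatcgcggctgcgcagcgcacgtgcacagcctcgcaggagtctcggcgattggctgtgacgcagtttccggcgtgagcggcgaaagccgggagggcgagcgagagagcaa
PSMD12: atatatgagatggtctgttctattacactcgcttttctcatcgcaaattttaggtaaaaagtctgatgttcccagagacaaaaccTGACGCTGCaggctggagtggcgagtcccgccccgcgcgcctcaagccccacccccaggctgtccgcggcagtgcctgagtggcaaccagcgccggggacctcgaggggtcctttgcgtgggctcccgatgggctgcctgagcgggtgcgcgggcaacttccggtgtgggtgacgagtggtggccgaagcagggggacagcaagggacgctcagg
The core was found in PSME2, which rose, 175 bases before the start, and in PSMD12, which fell, 165 bases before the start. It was also found in PSMC5, which rose, 57 bases before the downstream start and so after the upstream start. It was not in the window of PSME3, which fell. Of the other members that rose at least 2-fold, PSMD5 and PSMG2 had the core and PSMA2 and PSMB4 did not. Of the 50 members, 44 had at least 1 window, and 15 of these (34.1%) held the core, against 16.1% of the 27305 genes in the table. The core was present in 10 of the 21 members with a window that rose, in 1 of the 7 that fell and in 4 of the 13 that did not pass the test. The shares among all genes that rose or fell were not counted, so this split has no background and was not tested. Another 7 motifs were searched on both strands. CCAAT was found in 22 members (50.0%, against 39.7% of genes), the GC box GGGCGG in 31 (70.5%, against 48.3%) and the ETS core CCGGAAG in 17 (38.6%, against 12.2%). The cyclic AMP response element TGACGTCA was found in 0 of the 44 members and 2.25% of genes, and TGACTCAGC, 1 form of the antioxidant response element and so contained in its core, in 0 members and 0.689% of genes. The heat shock element was in 0 members and 0.608% of genes. The palindrome of the factor encoded by the gene NRF1, not by NFE2L1, was in 1 member, PSMA4, and 1.52% of genes. A gene with several windows has more chances of a match, and a match in these letters is not a binding site.

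The first comparison was whether the proteasome genes differed between androgen with and without CPI-455. A gene is said to have risen or fallen when its FDR was below 0.05 in edgeR's quasi-likelihood test fitted on all 17600 genes that passed the filter, and to be called when the change was also at least 2-fold. Of the 50 members, 47 passed the filter. Of these 25 rose, 7 fell and 15 did not pass the test, and most changes were under 2-fold. The rises are 53.2% of the tested members, where 29.8% of all tested genes and 26.3% of tested protein-coding genes rose. The falls are 14.9% of members, where 32.8% of all tested genes and 38.7% of protein-coding ones fell. With the fold threshold, 6 members were called higher (12.8%, against 21.0% of all tested genes and 15.6% of protein-coding ones) and 2 were called lower (4.26%, against 21.3% and 24.4%). In either direction 42.4% of all tested genes were called, against 8 of the 47 members. Both CPI-455 libraries lay above both vehicle libraries for 30 members (39.1% of all tested genes) and below them for 10 (42.8% of all tested genes). The median log2 fold change of CPI-455 over vehicle was 0.45 over the 47 members, -0.04 over all tested genes and -0.21 over protein-coding ones. RNA of whole cultures was compared at equal library size, so a change shared by all genes is not seen, and fewer cells that express a gene cannot be told apart from less of its RNA per cell. Removing a trend on exon length and GC content from each library gave 13 members called higher and 1 called lower. A fit without 1 library takes the spread within groups from the other group alone. A test not passed there does not show that a result rests on the library left out.

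**Figure D1:**
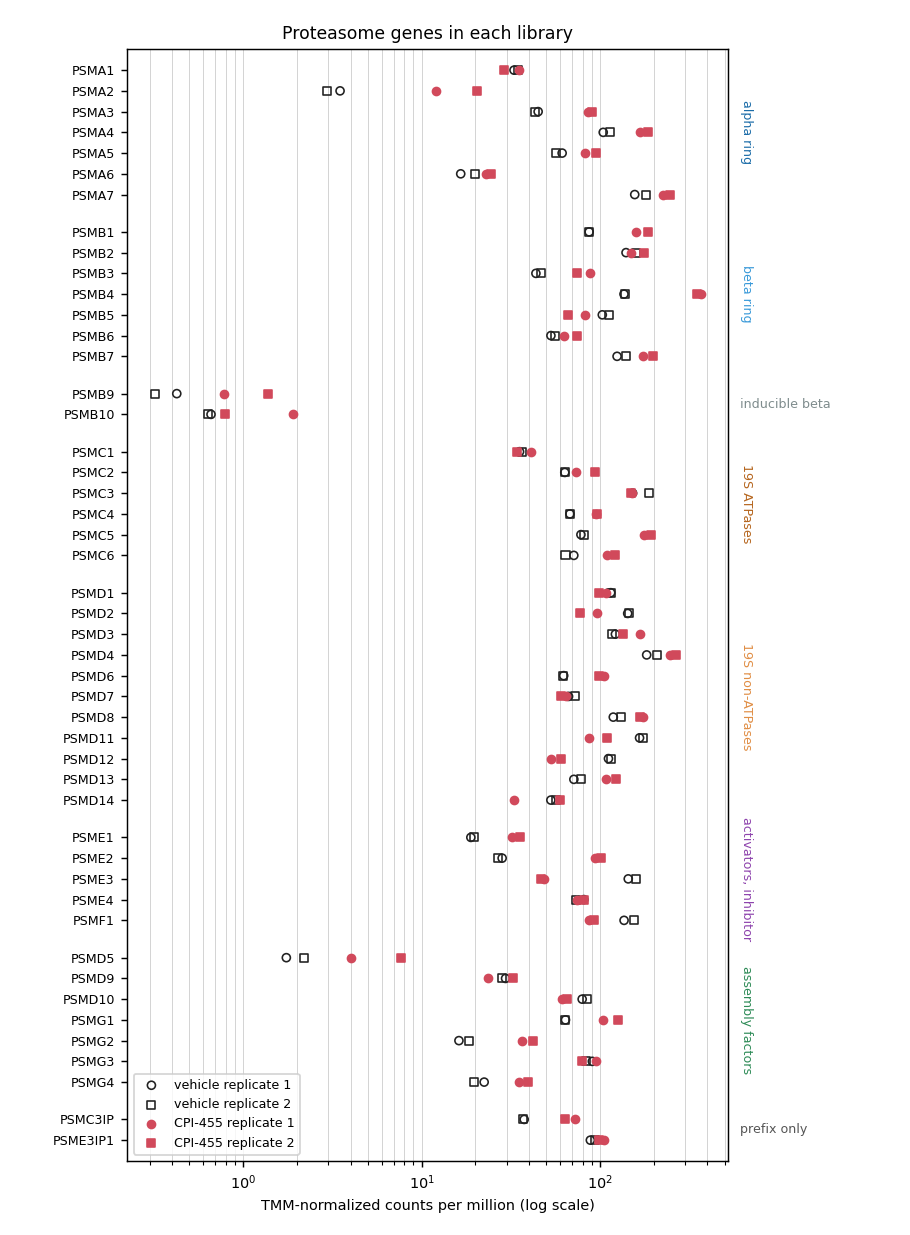
Level of the 47 tested members in each library, in TMM-normalized CPM on a log axis, grouped by class. Open black symbols are the 2 vehicle libraries and filled red symbols the 2 CPI-455 libraries. PSMB4, PSME2 and PSMA2 lie clearly to the right with CPI-455 and PSME3 and PSMD12 to the left, while most members differ by less than 2-fold.

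The alpha subunits, which form the outer rings and the gate of the core, rose in 5 of 7 tested cases, and none fell. Their median log2 fold change was 0.59. PSMA2 (GRCh38 chromosome 7, 42916857 to 42932223, minus strand) had the largest change of all members. It was at 3.50 and 2.97 CPM with vehicle and at 12.1 and 20.6 CPM with CPI-455. Both CPI-455 libraries were well above both vehicle libraries, although they also differed from each other, and the log2 fold change was 2.31 ± 0.33 (SE, FDR = 0.000255). The level of PSMA2 is measured on part of the gene only. Of its coding bases, 97.8% are shared with other counted genes, mainly a readthrough gene (ENSG00000256646) at 0 in all 4 libraries, and fragments on shared exons were counted for neither gene. MRPL32, a mitochondrial ribosomal protein gene that also overlaps PSMA2, rose too, with a log2 fold change of 1.61. PSMA3 rose just under 2-fold, from 45.0 and 43.1 CPM to 85.1 and 90.2 CPM (log2 fold change 0.99 ± 0.13, FDR = 0.000125). PSMA4, PSMA5 and PSMA7 rose by log2 fold changes of 0.70, 0.59 and 0.49. The rise of PSMA7 no longer passed the test with the exon length trend removed (0.19, FDR = 0.218) or with the length and GC trend removed (0.23, FDR = 0.0884). It was 0.36 without vehicle replicate 1, and that of PSMA5 was 0.51 without vehicle replicate 2. PSMA6 had a value of 0.38 (FDR = 0.113) and shares 70.4% of its coding bases. PSMA1, which shares 88.6% of its coding bases, had the lowest fold change of the class and was at 33.0 and 34.6 CPM with vehicle and 35.1 and 28.9 CPM with CPI-455, so that its groups overlapped (-0.07 ± 0.16, FDR = 0.734). PSMA8, the testis form of PSMA7, had no fragment in any library.

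The beta subunits form the inner rings, and 4 of 7 rose while PSMB5 fell. PSMB4 (chromosome 1, 151399534 to 151401944, plus strand), a structural subunit, was at 136 and 138 CPM with vehicle and at 367 and 348 CPM with CPI-455. The replicates of each group were close together and the groups were far apart, with a log2 fold change of 1.38 ± 0.11 (FDR = 6.18e-06). PSMB1 rose from 86.9 and 86.6 CPM to 159 and 185 CPM (0.98 ± 0.12, FDR = 9.9e-05), and PSMB3 rose by 0.84. The value of PSMB3 was 0.23 (FDR = 0.177) with the exon length trend removed and 0.21 (FDR = 0.179) with the length and GC trend removed, where the rise was lost. PSMB2 had a value of 0.12 (FDR = 0.466).

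Of the 3 constitutive catalytic subunits, 1 fell, 1 rose and 1 did not pass the test. PSMB5, which holds the chymotrypsin-like site and is the main target of proteasome inhibitor drugs, was at 103 and 112 CPM with vehicle and at 82.3 and 65.9 CPM with CPI-455. Both CPI-455 libraries were below both vehicle libraries, with a log2 fold change of -0.53 ± 0.14 (FDR = 0.00874), or -0.50 without vehicle replicate 2. PSMB7, the trypsin-like subunit, rose from 125 and 140 CPM to 175 and 199 CPM (0.50 ± 0.12, FDR = 0.00636). This rise did not pass the test with the exon length trend removed (0.22, FDR = 0.180), whereas it passed with the length and GC trend removed (0.31, FDR = 0.0271). It was 0.39 without vehicle replicate 1. PSMB6, the caspase-like subunit, was at 53.1 and 56.0 CPM with vehicle and at 63.0 and 74.6 CPM with CPI-455, and its value of 0.33 did not pass the test (FDR = 0.0634). Within a library, the level of PSMB4 per exon length was 1.08 and 1.01 times that of PSMB5 with vehicle and 3.64 and 4.32 times with CPI-455. This ratio does not depend on the scaling between libraries.

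The inducible catalytic subunits, which interferon induces and which replace the constitutive ones in the immunoproteasome, were near the detection limit in both groups. PSMB8 had 0 and 2 fragments with vehicle and 4 and 0 with CPI-455, and did not pass the filter. PSMB9 was at 0.425 and 0.320 CPM with vehicle and at 0.785 and 1.38 CPM with CPI-455 (1.47 ± 0.77, FDR = 0.123), and PSMB10 at 0.661 and 0.640 CPM against 1.91 and 0.791 CPM (1.11 ± 0.70, FDR = 0.192). For both genes the CPI-455 libraries were the higher ones, as for 39.1% of all tested genes, and neither difference passed the test. Few fragments stand behind these levels. For PSMB9 the vehicle libraries held 9 and 7 fragments, and each CPI-455 library held 7. For PSMB10 each vehicle library held 14 fragments, CPI-455 replicate 1 held 17 and CPI-455 replicate 2 held 4. In TPM, in which a level is scaled by exon length, PSMB8 made up at most 0.477% of the sum with PSMB5, PSMB9 at most 0.868% of the sum with PSMB6 and PSMB10 at most 1.04% of the sum with PSMB7 in any library. PSMB10 shares 58.3% of its coding bases with another counted gene, where fragments were counted for neither, so its share of this sum is uncertain. PSMB11, the thymus form, had no fragment.

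**Figure D2:**
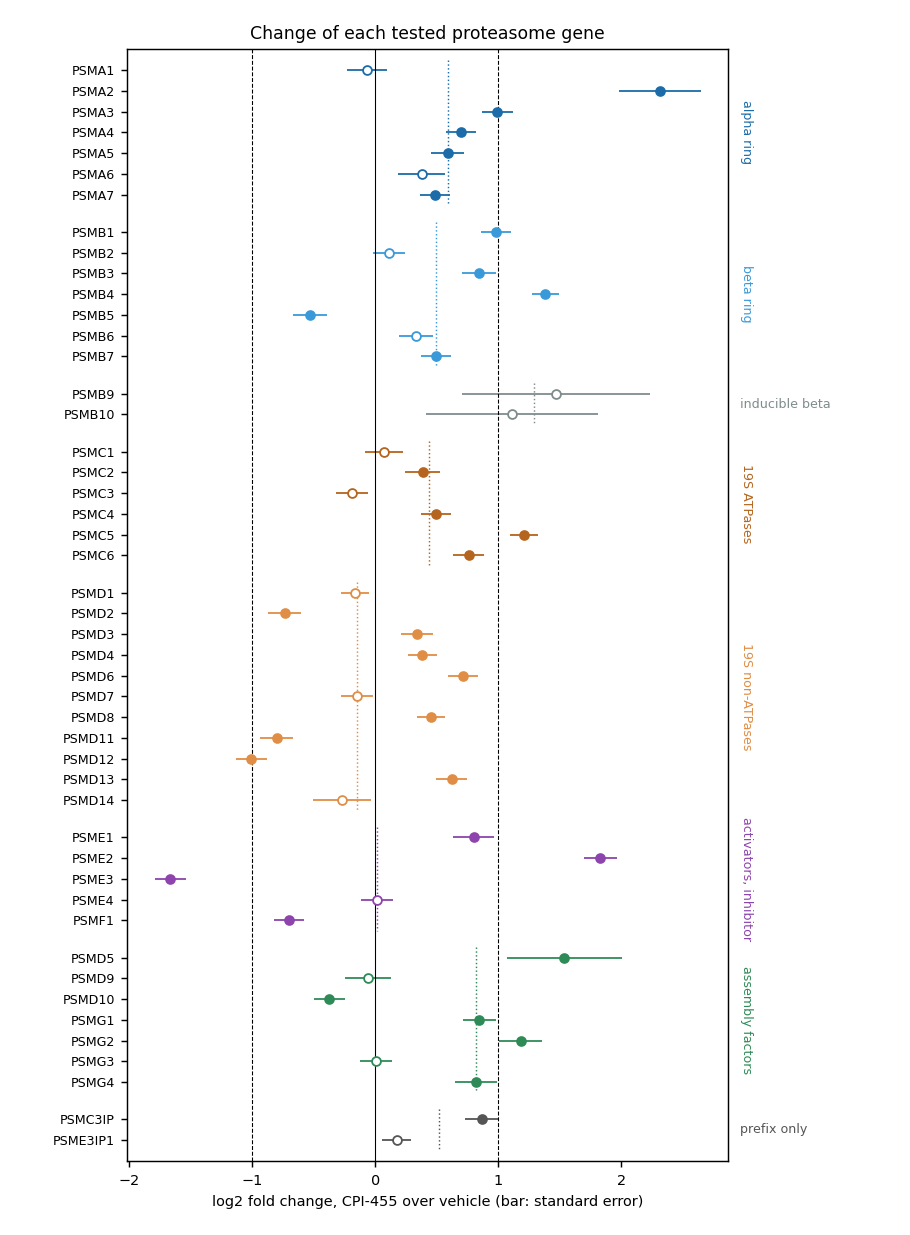
Log2 fold change of CPI-455 over vehicle for the 47 tested members by class, with its standard error. Filled points have an FDR below 0.05, dashed lines mark 2-fold, and the dotted line in each class is its median. The alpha ring and the assembly factors have the highest medians among the classes with more than 2 tested members (0.59 and 0.82), and the base and lid non-ATPases spread on both sides of 0.

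The ATPases of the regulatory particle form the ring that unfolds substrates, and 4 of 6 rose and none fell. PSMC5 (chromosome 17, 63827152 to 63832026, plus strand) was at 78.2 and 81.7 CPM with vehicle and at 177 and 194 CPM with CPI-455. It was the only ATPase called, with a log2 fold change of 1.21 ± 0.12 (FDR = 2.02e-05). PSMC6, PSMC4 and PSMC2 rose by 0.76, 0.49 and 0.39. PSMC4 and PSMC2 did not pass the test without a filter on low counts. PSMC4 did not pass with the length and GC trend removed (0.27, FDR = 0.0541), nor PSMC2 with scaling to library totals (0.19, FDR = 0.264). Without vehicle replicate 1 or 2, PSMC4 was at 0.47 and 0.48 and PSMC2 at 0.36 and 0.37. Without CPI-455 replicate 2, PSMC2 was at 0.17. PSMC3 had the lowest fold change of the class, at 152 and 189 CPM with vehicle and 151 and 149 CPM with CPI-455 (-0.19 ± 0.13, FDR = 0.244). PSMC1 had a value of 0.07 (FDR = 0.708), and it shares 47.7% of its coding bases with NRDE2 and has 13 named pseudogenes, so its level is uncertain.

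The non-ATPases of the base and lid moved in both directions, with 5 of 11 rising, 3 falling and a median log2 fold change of -0.14. The median was above 0 with upper-quartile normalization (0.03), with the exon length trend removed (0.12), with the length and GC trend removed (0.31) and without CPI-455 replicate 1 (0.10). PSMD12 (chromosome 17, 67337916 to 67366627, minus strand), a lid scaffold, was at 112 and 115 CPM with vehicle and at 53.0 and 60.1 CPM with CPI-455. Both CPI-455 libraries were well below both vehicle libraries, and the log2 fold change of -1.01 ± 0.13 (FDR = 0.000111) lay at the 2-fold threshold. It was -0.93 without CPI-455 replicate 1 and -0.50 with the length and GC trend removed, so the fall remained past the FDR threshold but not past 2-fold. PSMD11, another lid scaffold, fell from 167 and 173 CPM to 86.8 and 110 CPM (-0.80 ± 0.14, FDR = 0.000717). PSMD2, the base scaffold that receives shuttle factors, fell from 143 and 146 CPM to 95.7 and 77.0 CPM (-0.74 ± 0.13, FDR = 0.00105). PSMD1, the other large base scaffold, was at 115 and 116 CPM against 107 and 98.1 CPM and did not pass the test (-0.16 ± 0.12, FDR = 0.25).

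Other subunits of the same particle rose. PSMD6 had the highest value of this class, at 62.6 and 61.8 CPM with vehicle and 105 and 98.5 CPM with CPI-455 (0.71 ± 0.12, FDR = 0.000691). PSMD13, PSMD8 and PSMD3 rose by 0.62, 0.45 and 0.34. PSMD4, a ubiquitin receptor, rose from 183 and 209 CPM to 246 and 265 CPM (0.38 ± 0.12, FDR = 0.0177). PSMD4, PSMD8 and PSMD3 did not pass the test with scaling to library totals (0.19, 0.26 and 0.15) or without a filter on low counts. They were at 0.27, 0.36 and 0.34 without vehicle replicate 1, and at 0.46, 0.50 and 0.28 without vehicle replicate 2. PSMD3 was at 0.15 without CPI-455 replicate 1. PSMD14, the deubiquitinase of the lid, was at 53.0 and 56.4 CPM with vehicle and at 32.9 and 59.5 CPM with CPI-455. Its CPI-455 libraries lay on either side of the vehicle libraries, and the value of -0.27 ± 0.23 did not pass the test (FDR = 0.339). PSMD7 had a value of -0.14 (FDR = 0.353).

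The core was also compared with the regulatory particle as a whole, using the level per exon length summed over subunits. The core sum was 2021 and 2199 TPM with vehicle and 2448 and 2649 TPM with CPI-455. The regulatory particle sum was 1762 and 1923 TPM with vehicle and 1580 and 1687 TPM with CPI-455, whereas on the CPM scale it was 1681 and 1779 against 1886 and 1943, so the direction of its sum depends on the scale. The ratio of the TPM sums within a library, which does not depend on the scaling between libraries, was 1.15 and 1.14 with vehicle against 1.55 and 1.57 with CPI-455. By fragment count, without exon length, it was 0.659 and 0.669 against 0.909 and 0.935. Exon length and GC trends were not removed from these ratios. The median exon length was 2687.5 bases in the core and 4964 in the regulatory particle. The median log2 fold change was 0.54 over the 14 tested core subunits and 0.34 over the 17 regulatory ones. Their difference, 0.20, was 0.14 with the exon length trend removed and 0.38 with the length and GC trend removed. Over all alternative fits it was between 0.14 and 0.47, and it was not tested. With vehicle the core subunits spanned 2.79 TPM (PSMA2) to 380 TPM (PSMA7) in replicate 1, a range to which the shared exons of PSMA2 contribute, and the regulatory subunits spanned 24.5 TPM (PSMC1) to 285 TPM (PSMC3). With CPI-455 the core subunit with the highest level was PSMB4 in both libraries, at 559 and 552 TPM. It was at 269 and 274 TPM with vehicle, so this 1 gene made up a large part of the rise of the core sum.

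The largest opposite changes were among the alternative caps. PSME2 (chromosome 14, 24143362 to 24147570, minus strand), which forms a cap with PSME1, was at 28.3 and 26.7 CPM with vehicle and at 93.8 and 102 CPM with CPI-455. The groups were far apart, and the log2 fold change was 1.83 ± 0.13 (FDR = 4.48e-06), and fragments that fit any of its 6 named pseudogenes equally well were not counted. PSME1 rose as well, from 18.9 and 19.6 CPM to 32.0 and 35.4 CPM (0.80 ± 0.17, FDR = 0.0025). It did not pass the test with the length and GC trend removed (0.37, FDR = 0.0809), and was at 0.75 without vehicle replicate 1. PSME3 (chromosome 17, 42824385 to 42843758, plus strand), which caps the core in the nucleus, was at 144 and 160 CPM with vehicle and at 48.7 and 46.9 CPM with CPI-455. It was the member that fell furthest, with a log2 fold change of -1.67 ± 0.13 (FDR = 5.29e-06), a level 3.17-fold lower. Within a library the RNA level of PSME2 per exon length was 0.283 and 0.240 times that of PSME3 with vehicle and 2.77 and 3.13 times with CPI-455. The order of these RNA levels was thus reversed. PSME4, a nuclear cap linked to histone degradation, was at 81.2 and 73.1 CPM against 74.7 and 81.5 CPM (0.01 ± 0.13, FDR = 0.928). The inhibitor gene PSMF1 fell from 136 and 156 CPM to 87.3 and 92.8 CPM (-0.70 ± 0.12, FDR = 0.000894).

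The assembly factors had the highest median, 0.82, of the classes with more than 2 tested members, and 4 of 7 rose. The median of the alpha ring was the higher one with the exon length trend removed (0.90 against 0.79) and with the length and GC trend removed (1.10 against 0.88). PSMG1 and PSMG2 form a chaperone of the alpha ring. PSMG2 (chromosome 18, 12658043 to 12725740, plus strand) was at 16.2 and 18.4 CPM with vehicle and at 36.7 and 42.1 CPM with CPI-455 (1.18 ± 0.17, FDR = 0.000287). PSMG1 rose from 64.0 and 63.7 CPM to 104 and 126 CPM (0.85 ± 0.13, FDR = 0.000445). PSMG3 and PSMG4 form the partner chaperone. Here PSMG4 rose from 22.4 and 19.6 CPM to 35.1 and 39.4 CPM (0.82 ± 0.17, FDR = 0.00229), or by 0.70 without vehicle replicate 2. PSMG3 was at 90.6 and 84.0 CPM against 94.8 and 79.7 CPM (0.01 ± 0.13, FDR = 0.974).

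The chaperones of the regulatory base differed among themselves. PSMD5 (chromosome 9, 120815496 to 120842984, minus strand) was low, at 1.75 and 2.19 CPM with vehicle and at 4.04 and 7.71 CPM with CPI-455. Both were above the vehicle libraries but differed from each other by more than the lower of them did from vehicle, and the log2 fold change was 1.54 ± 0.47 (FDR = 0.0168). The log2 fold change was 1.38 and 1.71 without vehicle replicate 1 or 2. It was 1.94 and 0.99 without CPI-455 replicate 1 or 2, so its size depended on the CPI-455 library kept. PSMD10 (gankyrin) fell from 79.4 and 84.9 CPM to 61.4 and 65.7 CPM (-0.37 ± 0.13, FDR = 0.0267). That fall did not pass the test with upper-quartile normalization (-0.20), DESeq2 (-0.35, adjusted p = 0.0649) or the length and GC trend removed (-0.19). It was -0.44 and -0.35 without vehicle replicate 1 or 2. PSMD9 was at 29.6 and 28.2 CPM against 23.7 and 32.4 CPM (-0.06 ± 0.19, FDR = 0.799), and it shares 58.7% of its coding bases. The 2 genes with the prefix only differed too. PSMC3IP, which acts in meiotic recombination, rose from 37.6 and 36.9 CPM to 72.0 and 63.7 CPM (0.87 ± 0.14, FDR = 0.000482), and PSME3IP1, which binds PSME3, was at 88.3 and 93.4 CPM against 106 and 98.9 CPM (0.17 ± 0.12, FDR = 0.225).

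**Figure D3:**
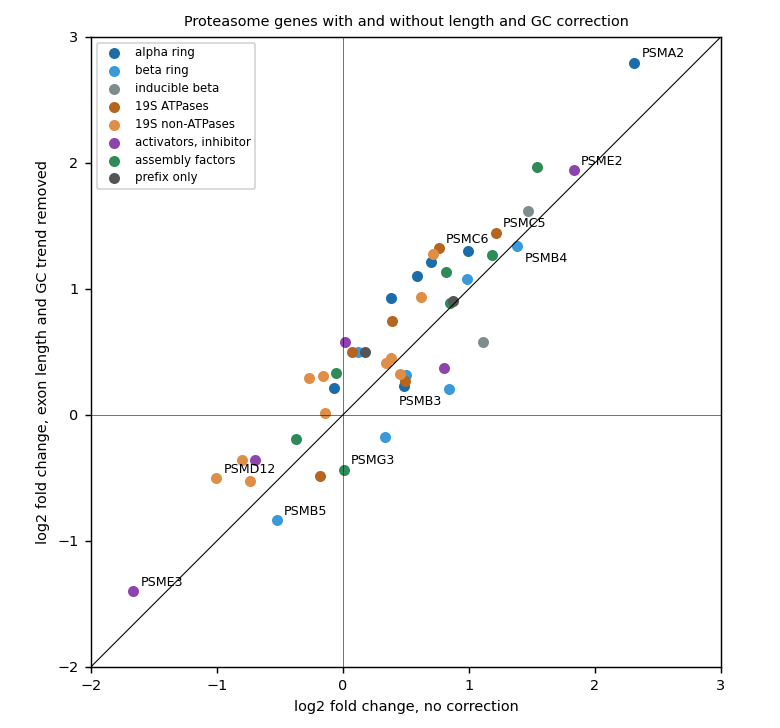
Log2 fold change of the tested members without correction (horizontal) and after the trend with exon length and GC content had been taken out of each library (vertical), coloured by class. On the line the values are equal. Long, GC-poor members such as PSMC6 lie above it (0.76 and 1.32), short members such as PSMB3 below it (0.84 and 0.21), and PSMA2, PSME2, PSMB4, PSMC5 and PSME3 are at least 2-fold changed on both axes.

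Exon length and GC content were examined beside the values. Across the 47 members the log2 fold change had a Spearman correlation of -0.20 with exon length and 0.04 with exon GC content, and across protein-coding genes of -0.14 and 0.19, where genes share the libraries and are not independent. With the trend removed PSMC6 had a log2 fold change of 1.32 and PSMB3 one of 0.21. PSMD1 and PSMG3 changed sign and passed the test there (0.31 and -0.44), and PSMB5 fell further (-0.84). PSMA2, PSMB4, PSMC5, PSME2 and PSME3 were called in the same direction in 14 of 14 alternative fits to all libraries and without any 1 of the 4 libraries. The stricter glmTreat test against a 2-fold change, which is not among these fits, called 3 members higher (PSMA2, PSMB4 and PSME2) and 1 lower (PSME3), and PSMC5 lay just outside it (FDR = 0.0504).

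Genes that work with the proteasome but lack the prefix were described from a list of 31. Of these, 30 were tested and DDI1 had no fragment, and 6 were called higher and 5 lower. These are 20% and 16.7% of the tested list, against the 21.0% and 21.3% of all tested genes given above, and the median log2 fold change of the list was 0.039. Genes for ubiquitin, for a lid subunit and for chaperones were among those called higher. UBB, a polyubiquitin gene, was at 275 and 322 CPM with vehicle and at 739 and 906 CPM with CPI-455 (1.46 ± 0.13, FDR = 1.63e-05), the largest rise among the 30 tested genes. RPS27A, a fusion of ubiquitin and a ribosomal protein, was at 856 and 791 CPM against 1535 and 1819 CPM (1.03). SEM1, the smallest lid subunit, was at 67.5 and 76.1 CPM with vehicle and at 173 and 189 CPM with CPI-455 (1.33 ± 0.12, FDR = 1.64e-05). POMP, the chaperone that matures the beta rings, was at 55.3 and 60.2 CPM against 125 and 138 CPM (1.18 ± 0.12, FDR = 3.56e-05). PAAF1, a chaperone of the base, was at 28.6 and 29.7 CPM against 56.5 and 72.0 CPM (1.13). UFD1, an adaptor of the VCP unfoldase, was at 61.2 and 62.7 CPM against 129 and 127 CPM (1.05). ADRM1, a ubiquitin receptor, had groups that overlapped, at 59.5 and 57.8 CPM against 62.0 and 55.0 CPM (0.00 ± 0.13, FDR = 0.995). UBB and SEM1 were called in every fit, the 4 leave-one-out fits and glmTreat included. The other 4 fell below 2-fold with scaling to library totals (POMP 0.99, PAAF1 0.94, UFD1 0.86 and RPS27A 0.83). Without a filter PAAF1, UFD1 and RPS27A were also below it (0.98, 0.90 and 0.87), as were PAAF1 and RPS27A without CPI-455 replicate 2 (0.91 and 0.85), RPS27A without vehicle replicate 2 (0.95) and POMP with the exon length trend removed (0.73).

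The genes called lower included the transcription factor of the proteasome genes and several that deliver substrates. NFE2L1 was at 378 and 343 CPM with vehicle and at 73.4 and 64.7 CPM with CPI-455, a log2 fold change of -2.38 ± 0.13 (FDR = 9.54e-07). DDI2, the protease known to activate the NFE2L1 protein, was at 60.2 and 65.4 CPM against 28.3 and 21.6 CPM (-1.31 ± 0.17, FDR = 0.000122). UBE3C, a ubiquitin ligase bound to the proteasome, was at 154 and 163 CPM against 42.2 and 44.9 CPM (-1.87). The shuttle receptor UBQLN2 was at 143 and 144 CPM against 46.2 and 54.2 CPM (-1.52), and the VCP adaptor NPLOC4 at 180 and 179 CPM against 89.9 and 68.4 CPM (-1.17). In each case both CPI-455 libraries were below both vehicle libraries, as for 42.8% of all tested genes. DDI2 and NPLOC4 were under 2-fold with the exon length trend removed (-0.93 and -0.75) and with the length and GC trend removed (-0.81 and -0.92), and NPLOC4 lay at the threshold with upper-quartile normalization. Of the 6 tested shuttle receptors, 5 fell, where 32.8% of all tested genes and 38.7% of protein-coding ones fell. Protein levels were not analysed here.

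**Figure D4:**
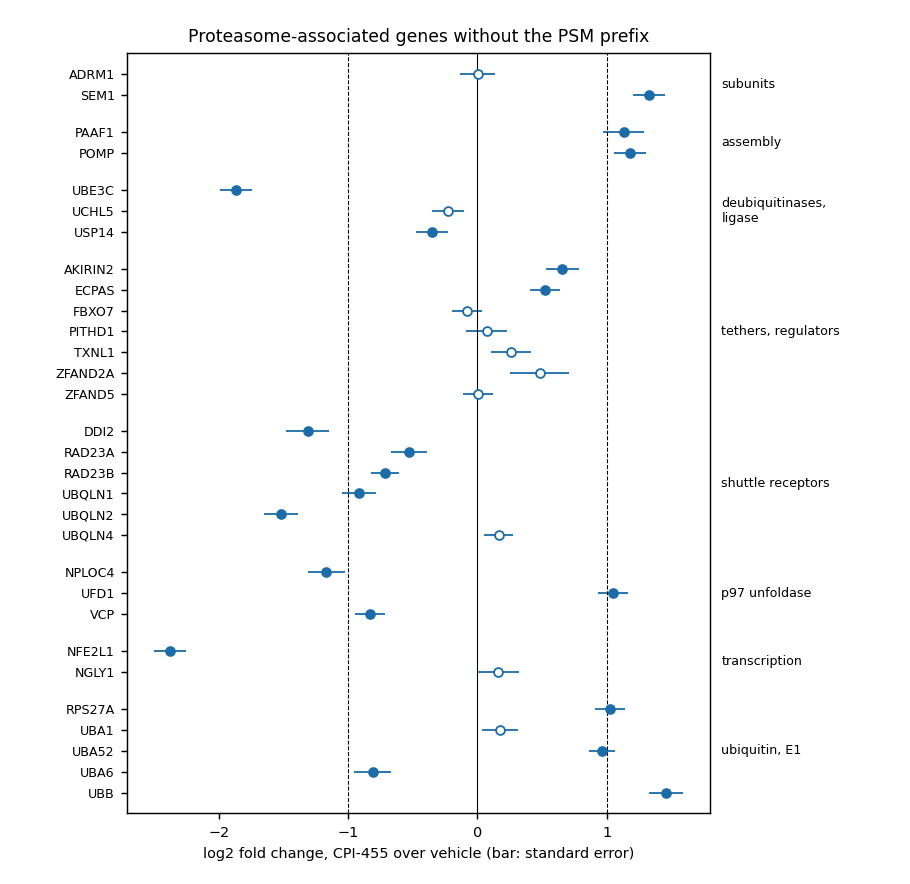
Log2 fold change of CPI-455 over vehicle, with its standard error, for the 30 tested genes that work with the proteasome but lack the PSM prefix, grouped by role. Filled points have an FDR below 0.05 and dashed lines mark 2-fold. UBB is the highest at 1.46, NFE2L1 the lowest at -2.38, and 5 of the 6 shuttle receptors lie below 0 with filled points.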

How the data were processed

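RNA of 4 LNCaP cultures was sequenced, 2 per group. The authors trimmed the reads with TrimGalore and used STAR for alignment to GRCh38 and featureCounts v1.5.0-p1, with Ensembl release 83, for counting. They deposited raw counts of fragments per gene, not normalized. Per the file headers the counting ignored strand and dropped fragments that aligned to more than 1 place or gene, so overlapping genes and near-identical copies are measured less surely. How RNA was selected is not given in the sources used here.

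Gene symbols matched 56558 of 60675 identifiers, and gene types came from GENCODE release 44, in which 56509 genes lie at the same place. From the counts, edgeR 4.0.16 (R 4.3.3) was run with TMM, filterByExpr (minimum 10 counts), glmQLFit and glmQLFTest, without covariates, with Benjamini-Hochberg adjustment over 17600 genes. Log2 fold changes are CPI-455 over vehicle. The standard error is the size of the log2 fold change divided by the square root of F. TPM was computed from the counts and the exon length in the files, and served to compare levels between genes, for sums over subunits in each library and for ratios within a library. A gene was called at an FDR below 0.05 and at least 2-fold. P-values measure the spread between 2 cultures per group, called biological replicates in the methods. The fitting was tested on simulated data with known changes, which rose and fell equally often and had no length or GC trend. That simulation cannot show how well the scaling or the trend removal works on these data.

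Members, classes and lists were chosen with earlier results of these data known. Values per library are given for the highest and lowest member of each class, catalytic and inducible subunits, receptors, scaffolds, the deubiquitinase, caps, inhibitor, assembly factors, prefix-only genes and every member called, and from the list of 31 associated genes for called genes and ADRM1. From the associated genes and from the luminal markers 1 gene each is not reported here and is left out of the counts of its list. PSMA3 and PSMB1 were added because they lay just under 2-fold, and PSMD11 as the other lid scaffold that fell, after their values were seen, as were the within-library ratios and the printed promoters. Motif searches were also made after the results were known.

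Alternatives were other scalings and filters, DESeq2 1.42.0, the likelihood-ratio test, glmTreat, an FDR below 0.01, a replicate block, removal of length and GC trends (mgcv 1.9.3, on merged exons), leaving out each library, and, chosen after seeing the data, leaving out members with over 50% of their coding bases shared.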

Additional observations from a re-analysis of the deposited data

How the results depend on the processing

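The members called higher numbered 6 and those called lower 2. With upper-quartile normalization the numbers were 11 and 1, with the exon length trend removed 11 and 1, and with the length and GC trend removed 13 and 1, in both cases with and without the replicate block. With glmTreat they were 3 and 1. RLE size factors, a minimum of 10 counts in every library and DESeq2 gave 1 called lower, since the log2 fold change of PSMD12 was then just under 2-fold. Leaving out 1 library gave 5 to 8 called higher and 1 to 3 called lower, and 16 to 26 that rose and 5 to 8 that fell. Over the alternative fits to all libraries, 551 member values kept their direction and side of the FDR threshold, 31 lost it, 30 gained it and 44 changed sign. PSMG2 lost its call with scaling to library totals (0.99). Of the associated genes, 2 were called higher and 8 lower with library totals, 3 higher without a filter (quasi-likelihood or likelihood-ratio test), 2 higher with glmTreat and 3 lower with either trend removed, with and without the replicate block, and leaving out 1 library gave 4 to 6 higher and 5 to 7 lower. The causes were not tested.

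The median of all tested genes shifted by 0.17 with upper-quartile normalization, by -0.19 with library totals and by -0.15 without a filter. The median log2 fold changes of the classes that moved by more than the spread between replicates are given next. With upper-quartile normalization they were 0.63 for all members, 0.77 for the alpha ring, 1.46 for the inducible subunits, 0.62 for the ATPases, 0.031 for the non-ATPases, 0.19 for caps and inhibitor, 0.99 for assembly factors and 0.70 for the prefix-only genes. With scaling to library totals only they were 0.26 for all members, 0.40 for the alpha ring, 1.10 for the inducible subunits, 0.25 for the ATPases, -0.34 for the non-ATPases, -0.18 for caps and inhibitor, 0.63 for assembly factors and 0.33 for the prefix-only genes. With no filter on low counts they were 0.32 for all members, 0.44 for the alpha ring, 0.29 for the ATPases, -0.30 for the non-ATPases, -0.14 for caps and inhibitor, 0.66 for assembly factors and 0.37 for the prefix-only genes. With the likelihood-ratio test and no filter they were 0.32 for all members, 0.44 for the alpha ring, 0.29 for the ATPases, -0.30 for the non-ATPases, -0.14 for caps and inhibitor, 0.66 for assembly factors and 0.37 for the prefix-only genes. With the exon length trend removed they were 0.90 for the alpha ring, 0.23 for the beta ring, 0.12 for the non-ATPases and 0.43 for caps and inhibitor. With the exon length trend removed and the replicate block they were 0.90 for the alpha ring, 0.23 for the beta ring, 1.12 for the inducible subunits, 0.11 for the non-ATPases and 0.43 for caps and inhibitor. With the length and GC trend removed they were 1.10 for the alpha ring, 1.10 for the inducible subunits, 0.62 for the ATPases, 0.31 for the non-ATPases, 0.37 for caps and inhibitor and 0.70 for the prefix-only genes. With the length and GC trend removed and the replicate block they were 1.10 for the alpha ring, 1.05 for the inducible subunits, 0.61 for the ATPases, 0.30 for the non-ATPases, 0.38 for caps and inhibitor and 0.69 for the prefix-only genes. Leaving out 1 library gave medians of 0.36 to 0.49 for all members, 0.44 to 0.67 for the alpha ring, 0.36 to 0.57 for the beta ring, 1.06 to 1.38 for the inducible subunits, 0.30 to 0.51 for the ATPases, -0.19 to 0.10 for the non-ATPases, -0.090 to 0.071 for caps and inhibitor, 0.66 to 0.89 for assembly factors and 0.43 to 0.54 for the prefix-only genes. Leaving out the members with over 50% of coding bases shared, a choice made after seeing the data, gave 1.47 for the inducible subunits, which then were PSMB9 alone. With a minimum of 10 counts in every library no inducible subunit was left.

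The replicate numbers were not used as pairs in the main fit. The deviations of same-numbered libraries had a correlation of 0.05 across genes. With 2 libraries per group and low counts in many genes, this value cannot decide whether the cultures were paired. With the replicate block alone, counts of calls moved by less than 1.5 times. Of 94 changes of sign over 20 genes, 12 passed the FDR threshold in the alternative. With upper-quartile normalization, the log2 fold change was 0.11 for PSMA1, 0.013 for PSMD1, 0.031 for PSMD7, 0.12 for PSMD9 and 0.092 for FBXO7. With the exon length trend removed, the log2 fold change was 0.020 for PSMA1, -0.11 for PSMB6, 0.12 for PSMD1, 0.12 for PSMD14, 0.35 for PSMD9, -0.22 for PSMG3, 0.13 for UCHL5, -0.16 for ADRM1, 0.33 for FBXO7 and -0.076 for PITHD1. With the exon length trend removed and the replicate block, the log2 fold change was 0.012 for PSMA1, -0.11 for PSMB6, 0.11 for PSMD1, 0.088 for PSMD14, 0.35 for PSMD9, -0.22 for PSMG3, 0.14 for UCHL5, -0.16 for ADRM1, 0.32 for FBXO7 and -0.081 for PITHD1. With the length and GC trend removed, the log2 fold change was 0.21 for PSMA1, -0.18 for PSMB6, 0.31 for PSMD1, 0.29 for PSMD14, 0.015 for PSMD7, 0.33 for PSMD9, -0.44 for PSMG3, 0.32 for UCHL5, 0.18 for USP14, -0.37 for ADRM1 and 0.48 for FBXO7. With the length and GC trend removed and the replicate block, the log2 fold change was 0.19 for PSMA1, -0.18 for PSMB6, 0.30 for PSMD1, 0.27 for PSMD14, 0.012 for PSMD7, 0.33 for PSMD9, -0.44 for PSMG3, 0.32 for UCHL5, 0.17 for USP14, -0.37 for ADRM1, 0.48 for FBXO7 and -0.0040 for PITHD1. With scaling to library totals only, the log2 fold change was -0.075 for PSMB2, -0.12 for PSMC1, -0.18 for PSME4, -0.19 for PSMG3, -0.017 for PSME3IP1, -0.026 for UBQLN4, -0.19 for ADRM1, -0.12 for PITHD1, -0.19 for ZFAND5, -0.034 for NGLY1 and -0.017 for UBA1. With no filter on low counts, the log2 fold change was -0.038 for PSMB2, -0.084 for PSMC1, -0.14 for PSME4, -0.15 for PSMG3, -0.15 for ADRM1, -0.083 for PITHD1 and -0.15 for ZFAND5. With the likelihood-ratio test and no filter, the log2 fold change was -0.038 for PSMB2, -0.082 for PSMC1, -0.14 for PSME4, -0.15 for PSMG3, -0.15 for ADRM1, -0.083 for PITHD1 and -0.15 for ZFAND5. With the replicate block, the log2 fold change was -0.0024 for PSMG3 and -0.0040 for ADRM1. With TMM without mitochondrial genes and MALAT1, the log2 fold change was -0.00016 for ADRM1. Leaving out 1 library, the sign also changed for genes whose values then ranged as follows: PSMA1 -0.25 to 0.011, PSMB2 -0.057 to 0.22, PSMC1 -0.086 to 0.14, PSMD14 -0.78 to 0.10, PSME4 -0.090 to 0.071, PSMD9 -0.33 to 0.15, PSMG3 -0.15 to 0.076, ADRM1 -0.11 to 0.037, PITHD1 -0.075 to 0.17, ZFAND5 -0.14 to 0.083, NGLY1 -0.031 to 0.29, UBA1 -0.052 to 0.31. PSMB8, PSMB9 and PSMB10 were under 1 CPM in both vehicle libraries, where few fragments stand behind a value.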

Other observations

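Another 51 genes carry a PSM prefix but are not protein-coding, and 5 of these passed the filter on low counts. PSMA3-AS1, an antisense gene of PSMA3, was at 31.2 and 30.9 CPM with vehicle and at 73.9 and 68.2 CPM with CPI-455, a log2 fold change of 1.20 ± 0.14 (FDR = 5.91e-05, edgeR quasi-likelihood test). PSMG3-AS1 was at 8.83 and 13.5 CPM with vehicle and at 3.48 and 2.18 CPM with CPI-455 (-1.93 ± 0.37, FDR = 0.00145), while PSMG3 itself did not pass the test. PSMD6-AS2 had 74 and 81 fragments with vehicle and 0 and 0 with CPI-455, and PSMB8-AS1 had 1 and 1 against 8 and 8. Strand was not used in the counting, so fragments of these genes and of the members they overlap were told apart by position only, and fragments on shared exons were counted for neither. PSMA3 shares 0 of its 3119 exon bases with other counted genes, PSMG3 60 of 1960, PSMD6 714 of 9123 and PSMB8 425 of 2006.

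Of the 44 named pseudogenes of the members, 27 had no fragment in any library and 1, PSMC1P1, passed the filter, with 28 and 23 fragments with vehicle and 13 and 3 with CPI-455. NRDE2, which shares coding bases with PSMC1, was at 37.1 and 35.9 CPM with vehicle and 140 and 137 CPM with CPI-455. It rose, with a log2 fold change of 1.92 (FDR = 2.07e-06), while PSMC1 had a value of 0.07.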
